A study of Homo sapiens with 9 samples.

Results

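Hypoxia-inducible genes and the regulators that switch them on were followed in cells of HCT116, a human line established from a colon carcinoma, whose STBD1 had been knocked down and, in 6 of 9 libraries, expressed again. STBD1 is a glycogen-binding protein that is thought to hand glycogen to the autophagy machinery. The set held 46 of the 58395 genes listed in each table. It was chosen as a written list of hypoxia-inducible factor (HIF) pathway genes and genes known to be induced by low oxygen, without the glycolytic enzymes. The rule used no measured value, although the list was written with earlier results of these data known.

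RNA was sequenced from 9 libraries in 3 groups of 3 replicates. All 9 carried shSTBD1, a short hairpin RNA against STBD1. The plvx neo group carried this hairpin with the lentiviral vector alone, the STBD1 WT group with wild-type STBD1, and the STBD1 W203C group with STBD1 carrying a tryptophan-to-cysteine change in its LC3-interacting motif. The cells were infected with lentivirus, selected with drugs and grown in DMEM with fetal bovine serum, and no low-oxygen treatment is named. Each group was 1 stable cell line, so a difference between constructs and a difference between lines cannot be told apart, and p-values measured only the spread between replicate libraries of these lines.

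In the sample titles the STBD1 constructs are named the other way round from how the deposited tables name them, and a table of TPM values (transcript abundance scaled for transcript length and to a fixed library total) published with the study follows the table names. In all 197 genes of that published table, the values under W203C were those of the libraries labelled STBD1 WT, and the values under WT were those of the libraries labelled STBD1 W203C. The labels were followed here. The 3 libraries labelled STBD1 WT are called WT-labelled and the 3 labelled STBD1 W203C are called W203C-labelled. Exchanging the labels would turn round each direction between the constructs and would swap their comparisons with plvx neo.

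HIF transcription factors pair an oxygen-regulated alpha subunit with the constant subunit ARNT. When oxygen is present, prolyl hydroxylases of the EGLN family mark the alpha subunit, VHL binds the mark and the protein is degraded. When oxygen is short, or when hydroxylation is blocked, the alpha subunit persists, enters the nucleus and switches on genes for glucose uptake, acid export, blood vessel growth, mitochondrial turnover and lipid storage. Several hydroxylases and demethylases of the response are themselves HIF targets. Because the alpha subunits are controlled mainly as proteins, their RNA level does not measure HIF activity.

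Library totals were 16.9 to 23.3 M expected counts (M, mega), the fragment numbers that RSEM assigns to each gene. As a check of the constructs, STBD1 together with the overlapping transcript FAM47E-STBD1 was at 4.85 ± 0.751 TPM in plvx neo, 54.6 ± 2.39 TPM in the WT-labelled and 46.1 ± 2.30 TPM in the W203C-labelled libraries (mean ± SD, n = 3 each). The groups did not overlap, and each exact permutation test, two-sided, gave p = 0.1, the smallest that 3 against 3 libraries allow. All 7 epithelial markers were at 1 TPM or more in every library, with a summed level of 3626 to 4043 TPM in plvx neo and WT-labelled libraries and 3345 to 3610 TPM in W203C-labelled ones. Of 4 endothelial, 6 fibroblast and 5 leukocyte markers only COL1A1 and CD68 reached 1 TPM, and PTPRC, which defines leukocytes, was at 0.00 TPM in all 9. CD68 was at 2.17 to 2.41 TPM in plvx neo, 3.86 to 6.47 TPM in WT-labelled and 1.33 to 2.01 TPM in W203C-labelled libraries, so it moved with many of the members described here, and its part in them was not tested. The exons of CD68 overlap those of genes at 4.9 TPM on the same strand and 13.1 TPM on the opposite strand, so its level is uncertain. In bulk RNA, fewer cells with a transcript and less transcript per cell cannot be told apart.

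Of the 46 genes, 43 had enough counts to be tested. STC1, NRN1 and RORA were between 0.00 and 0.23 TPM in every library and were not tested. Genes were compared on counts with the quasi-likelihood F-test of edgeR, two-sided, and p-values were adjusted by Benjamini-Hochberg over all genes tested, with 0.05 as the threshold. A gene is said to have risen or fallen only where it passed this threshold. Folds are given as log2 fold change ± standard error (SE) on counts, and levels as TPM, which can be compared between genes.

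By their median, hypoxia-inducible genes were lowest in the W203C-labelled line and highest in the WT-labelled line. A gene that fell between the constructs is one that was lower in the W203C-labelled than in the WT-labelled libraries. Between these constructs, 31 of the 43 tested members were lower in the W203C-labelled libraries, none was higher and 12 did not pass. In the whole table, 13.4% of 15052 tested genes were lower and 14.5% higher. By edgeR, 2 of the 43 members, JMJD6 and HIF1AN, were higher at an unadjusted p below 0.05. By DESeq2 none was higher and 27 were lower, with ANKRD37, ARNT, DDIT4 and EGLN1 no longer called. With a correction for GC content and length 30 were lower and 3, HIF1AN, JMJD6 and PFKFB3, were higher. JMJD6 was also called higher without WT-labelled 1 (0.16, edgeR adjusted p = 0.0409) and HIF1A without W203C-labelled 3 (0.12, edgeR adjusted p = 0.0465). A limma test of log2(TPM + 1), which changes both the unit and the test, called 14 members, 13 lower and 1, AK4, higher. It did not call ADM, ANKRD37, ARNT, CA9, DDIT4, EGLN1, EPAS1, ERO1A, HILPDA, KDM4C, MXI1, PDK1, SLC16A3, SLC2A3, VEGFA, VHL, WSB1 or ZNF395. The median log2 fold change was -0.29 over the members and -0.0078 over all genes tested. The TPM of 22 members were lower in all W203C-labelled than in all WT-labelled libraries, against 11.8% of all tested genes, and those of 2 members, AK4 and PFKFB3, were higher without overlap, against 21.3%.

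The same genes were then compared with the vector line. Against plvx neo, 20 members rose in the WT-labelled libraries, 2 fell and 21 did not pass, where 13.9% of 15289 tested genes rose and 13.9% fell. DESeq2 called 18 higher, without DDIT4 and INSIG2, and 2 lower, and limma on log2(TPM + 1) called 10, all higher, without DDIT4, ERO1A, HILPDA, INSIG2, JMJD6, KDM3A, KDM4C, PFKFB3, PFKFB4, SLC16A3, SLC2A3 and VHL. The median log2 fold change was 0.19 over the members and 0.0061 over all genes. TPM were higher without overlap for 17 members and lower for 1, against 15.6% and 15.7% of all tested genes. In the W203C-labelled libraries, 3 members rose against plvx neo, 14 fell and 26 did not pass, where 3.03% of 15081 tested genes rose and 2.67% fell. DESeq2 called 3 higher and 10 lower, without BNIP3L, FUT11, PDK1 and PPFIA4, and limma on log2(TPM + 1) called only NDRG1, which was lower. Leaving out plvx neo 3 took the 17 edgeR calls to 7, and leaving out W203C-labelled 1, 2 or 3 took them to 9, 9 and 11. In the same fits the calls over all tested genes went from 859 to 459, and to 501, 543 and 818. The median was -0.16 over the members and -0.0031 over all genes, and TPM were higher without overlap for 3 members (14.7% of all genes) and lower for 11 (5.48%). These comparisons share libraries, so their counts are not separate pieces of evidence.

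In one fit of the 3 groups, 33 of the 43 members differed among them, where 32.8% of 15489 tested genes did. The mean was highest in the WT-labelled libraries for 27 of these 33, against 43.8% of all genes that differed, and lowest in the W203C-labelled libraries for 25 of the 33, against 25.3%. ARNT, FUT11, JMJD6, PFKFB3 and ZNF395 were highest in plvx neo, and HIF1A alone was highest in the W203C-labelled libraries. The TPM of 5 members, ANGPTL4, BNIP3, BNIP3L, NDRG1 and PFKFB4, were above plvx neo in all WT-labelled and below it in all W203C-labelled libraries, where 0.381% of the 15489 genes showed this order. The order of the groups held for the medians of single libraries. The median deviation of the 43 members from their 9-library means, in log2 CPM (counts scaled to equal library totals), was 0.22, 0.15 and 0.16 in the WT-labelled libraries, 0.01, 0.00 and 0.03 in plvx neo and -0.18, -0.13 and -0.12 in the W203C-labelled libraries.

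**Figure D1:**
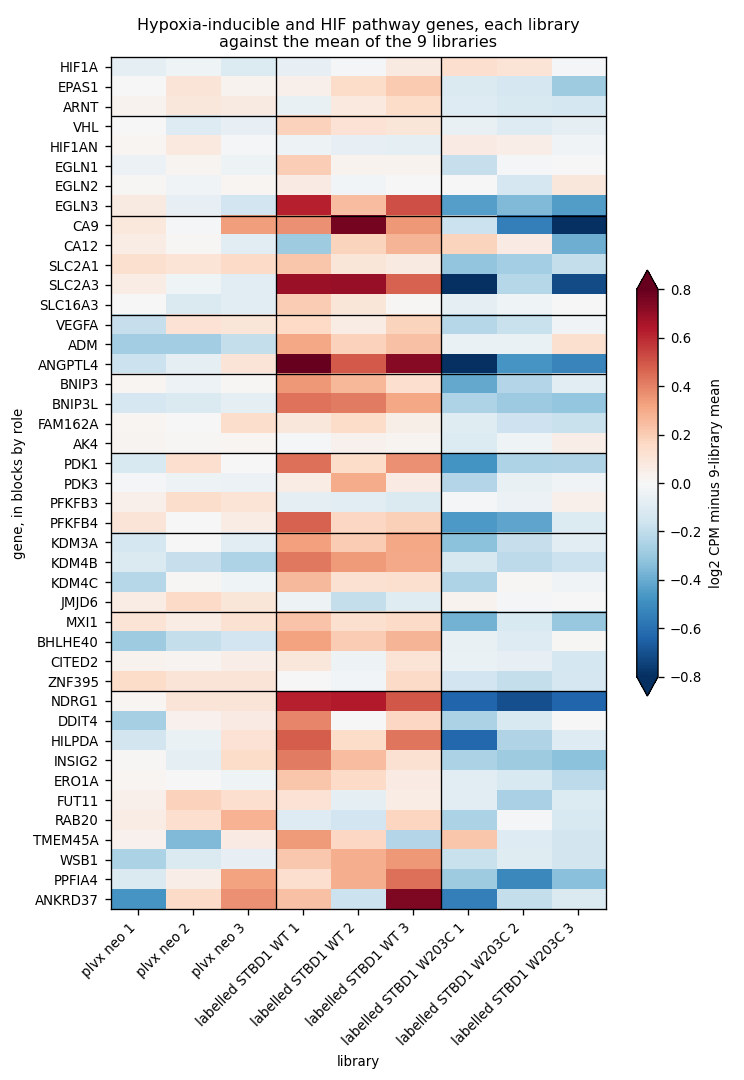
Rows are the 43 tested members in blocks by role and columns the 9 libraries, and colour gives log2 CPM minus the gene's mean over the 9 libraries, from blue (lower) to red (higher), with the scale ending at -0.8 and 0.8. The WT-labelled columns are mostly red and the W203C-labelled columns mostly blue. HIF1A, HIF1AN, PFKFB3 and JMJD6 are among the rows that do not follow this order.

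**Figure D2:**
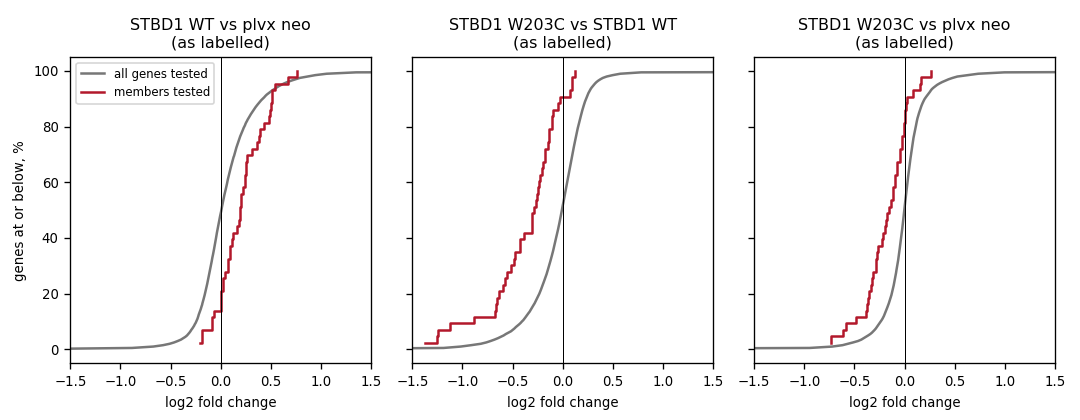
The cumulative share of genes (vertical axis, percent) at or below each log2 fold change (horizontal axis) is drawn for the 43 tested members in red and for all tested genes in grey, with 1 panel for each comparison. The red curve lies to the right of the grey one for WT-labelled against plvx neo and to its left where the W203C-labelled libraries were compared, with medians of 0.19, -0.29 and -0.16.

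Among the HIF subunits only EPAS1 moved by more than 0.2 on the log2 scale. HIF1A encodes the broadly expressed alpha subunit and was at 50.2, 54.8 and 53.2 TPM in plvx neo, 49.6, 52.2 and 57.1 TPM in the WT-labelled libraries and 58.1, 59.9 and 53.9 TPM in the W203C-labelled libraries. The groups overlapped. By edgeR HIF1A rose in the W203C-labelled libraries against plvx neo, by a log2 fold change of 0.15 ± 0.043, edgeR adjusted p = 0.0448, and this call was lost when any one of plvx neo 1, plvx neo 3, W203C-labelled 1 or W203C-labelled 2 was left out (edgeR adjusted p 0.0844 to 0.249). Its change was 0.074 ± 0.042 in the WT-labelled libraries against plvx neo and 0.078 ± 0.045 between the constructs, and neither passed. In hg38 the gene (ENSG00000100644) spans bases 61695513 to 61748259 of chromosome 14, plus strand. With the correction for GC content and length HIF1A also passed in the WT-labelled libraries against plvx neo (0.10, edgeR adjusted p = 0.0243). HIF1A did not fall in any comparison.

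EPAS1 encodes the second alpha subunit, HIF-2 alpha. It was at 12.5, 14.9 and 12.1 TPM in plvx neo, 13.3, 13.7 and 15.1 TPM in the WT-labelled libraries and 11.3, 12.6 and 10.5 TPM in the W203C-labelled libraries. All W203C-labelled libraries were below all WT-labelled ones, and EPAS1 fell between the constructs (-0.31 ± 0.058, edgeR adjusted p = 0.000343). Against plvx neo it also fell in the W203C-labelled libraries (-0.22 ± 0.058, edgeR adjusted p = 0.0201), a call lost without plvx neo 2, plvx neo 3 or W203C-labelled 3 (edgeR adjusted p 0.0662 to 0.105).

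ARNT, the shared partner subunit, was at 12.2, 16.2 and 13.6 TPM in plvx neo, 13.1, 15.5 and 14.2 TPM in the WT-labelled libraries and 14.4, 12.7 and 12.6 TPM in the W203C-labelled libraries. Its groups overlapped in every comparison. ARNT fell between the constructs by a small amount (-0.18 ± 0.062, edgeR adjusted p = 0.0327), and the call was lost without any one of WT-labelled 2, WT-labelled 3 or the 3 W203C-labelled libraries (edgeR adjusted p 0.0666 to 0.158). It was -0.10 in limma on log2(TPM + 1) (adjusted p = 0.514).

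Oxygen sensing rests on VHL, HIF1AN and the EGLN enzymes. VHL, the recognition subunit of the ubiquitin ligase that removes hydroxylated HIF, was at 25.5, 24.4 and 27.1 TPM in plvx neo, 29.8, 28.7 and 29.01 TPM in the WT-labelled libraries and 24.99, 26.2 and 24.8 TPM in the W203C-labelled libraries. The WT-labelled libraries lay above all others. VHL rose there against plvx neo (0.19 ± 0.05, edgeR adjusted p = 0.00763) and fell in the W203C-labelled against the WT-labelled libraries (-0.21 ± 0.049, edgeR adjusted p = 0.00238). HIF1AN encodes the asparagine hydroxylase that blocks HIF from its coactivators, and was at 20.4, 27.01 and 22.2 TPM in plvx neo, 23.02, 21.9 and 19.6 TPM in the WT-labelled libraries and 27.3, 26.4 and 23.02 TPM in the W203C-labelled libraries. HIF1AN did not pass in any comparison, and the groups overlapped. With the correction for GC content and length it passed between the constructs (0.12, edgeR adjusted p = 0.0236) and in WT-labelled against plvx neo (-0.10, edgeR adjusted p = 0.0488). Its exons overlap those of NDUFB8 on the opposite strand, which stood at 502 TPM, and whether counting used the strand is not stated, so the level of HIF1AN is uncertain.

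The 3 EGLN prolyl hydroxylases differed among themselves. EGLN1, the main oxygen sensor in most cells, was at 19.4, 21.9 and 23.9 TPM in plvx neo, 26.4, 25.03 and 22.7 TPM in the WT-labelled libraries and 18.9, 28.99 and 19.5 TPM in the W203C-labelled libraries. The groups overlapped, and W203C-labelled 2 was the highest library. EGLN1 fell between the constructs (-0.15 ± 0.054, edgeR adjusted p = 0.0433), but not without WT-labelled 1 (-0.086, edgeR adjusted p = 0.277) or W203C-labelled 1 (-0.084, edgeR adjusted p = 0.302), nor by DESeq2. EGLN2 was at 35.2, 33.9 and 35.5 TPM in plvx neo, 36.4, 35.9 and 35.4 TPM in the WT-labelled libraries and 37.01, 33.2 and 38.1 TPM in the W203C-labelled libraries. It did not pass in any comparison, and its log2 fold changes were between -0.022 and 0.021.

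EGLN3, the hydroxylase whose own gene is among the most strongly HIF-induced, was the member of this family that moved most. It was at 4.40, 3.85 and 4.07 TPM in plvx neo, 6.07, 6.32 and 5.64 TPM in the WT-labelled libraries and 2.7, 4.24 and 2.73 TPM in the W203C-labelled libraries. The WT-labelled libraries lay above all others, while W203C-labelled 2 lay inside the plvx neo range. EGLN3 rose in the WT-labelled libraries against plvx neo (0.51 ± 0.12, edgeR adjusted p = 0.00233) and fell between the constructs (-0.88 ± 0.12, edgeR adjusted p = 1.48e-05). Against plvx neo the W203C-labelled change was -0.37 ± 0.12, edgeR adjusted p = 0.0853, which did not pass. In hg38 the gene (ENSG00000129521) spans bases 33924227 to 34462774 of chromosome 14, minus strand.

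Transport and pH genes included the lowest-expressed of the tested members. CA9 encodes a cell-surface carbonic anhydrase that serves as a classical hypoxia marker, and was at 3.00, 3.42 and 3.52 TPM in plvx neo, 3.31, 4.41 and 3.32 TPM in the WT-labelled libraries and 2.65, 1.81 and 1.16 TPM in the W203C-labelled libraries. Each W203C-labelled library was below the others, and W203C-labelled 3 was the lowest. CA9 fell between the constructs (-1.12 ± 0.23, edgeR adjusted p = 0.00084), and against plvx neo the change of -0.73 ± 0.24, edgeR adjusted p = 0.0702 did not pass. The latter passed without a filter on low counts (-0.74, edgeR adjusted p = 0.017) and without W203C-labelled 1 (edgeR adjusted p = 0.0317). The construct change was -0.73 in limma on log2(TPM + 1) and did not pass (adjusted p = 0.0512). The exons of CA9 overlap those of ARHGEF39 (14 TPM) on the opposite strand, which makes its low level uncertain. CA12, a related carbonic anhydrase, was between 1.55 and 2.28 TPM and did not pass in any comparison.

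SLC2A1, or GLUT1, is the glucose transporter of most cancer cells and was the second most abundant member. It was at 216, 236 and 229.8 TPM in plvx neo, 266, 233 and 233 TPM in the WT-labelled libraries and 173, 199 and 204 TPM in the W203C-labelled libraries. The W203C-labelled libraries were the lowest of all, and plvx neo and WT-labelled libraries overlapped. SLC2A1 fell in the W203C-labelled libraries against WT-labelled ones (-0.39 ± 0.043, edgeR adjusted p = 1.04e-06) and against plvx neo (-0.39 ± 0.037, edgeR adjusted p = 1.89e-07), while the change from plvx neo to WT-labelled was 0.0044 ± 0.04, edgeR adjusted p = 0.951. In limma on log2(TPM + 1) the change against plvx neo was -0.25 and did not pass (adjusted p = 0.132).

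SLC2A3, or GLUT3, a transporter with a high affinity for glucose, was present at a much lower level. It was at 1.54, 1.23 and 0.75 TPM in plvx neo, 1.29, 2.03 and 2.53 TPM in the WT-labelled libraries and 0.43, 1.52 and 0.57 TPM in the W203C-labelled libraries. Every pair of groups overlapped in TPM. On counts SLC2A3 rose in the WT-labelled libraries against plvx neo (0.67 ± 0.18, edgeR adjusted p = 0.00812) and fell between the constructs (-1.25 ± 0.22, edgeR adjusted p = 0.000217), and neither call held in a limma test of log2(TPM + 1). SLC16A3, or MCT4, which carries lactate out of the cell, was the most abundant member at 404 to 520 TPM. It rose in the WT-labelled libraries against plvx neo (0.18 ± 0.044, edgeR adjusted p = 0.00504) and was lower in the W203C-labelled than in the WT-labelled ones (-0.14 ± 0.043, edgeR adjusted p = 0.0149). When gene counts were corrected for GC content and length these values became 0.0039 and -0.006 and neither passed. The construct call was also lost without WT-labelled 1, W203C-labelled 1 or W203C-labelled 2 (edgeR adjusted p 0.0544 to 0.148), and SLC16A3 overlaps exons of CSNK1D on the opposite strand.

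Secreted factors included the member with the largest fold. ANGPTL4 encodes a secreted inhibitor of lipoprotein lipase, and was at 13.7, 16.1 and 17.8 TPM in plvx neo, 30.5, 22.3 and 27.5 TPM in the WT-labelled libraries and 8.97, 12.3 and 11.7 TPM in the W203C-labelled libraries. The 3 groups did not overlap, with WT-labelled above plvx neo and W203C-labelled below it. ANGPTL4 fell between the constructs by -1.37 ± 0.11, edgeR adjusted p = 1.41e-08, where log2 -1.37 is a 2.58-fold lower level. In hg38 the gene (ENSG00000167772) spans bases 8363289 to 8374370 of chromosome 19, plus strand. It rose in the WT-labelled libraries against plvx neo (0.76 ± 0.092, edgeR adjusted p = 3.52e-06) and fell in the W203C-labelled libraries against plvx neo (-0.61 ± 0.1, edgeR adjusted p = 0.000624).

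ADM, the vasodilator peptide adrenomedullin, followed another order. It was at 66.01, 66.5 and 72.2 TPM in plvx neo, 104, 91.6 and 92.5 TPM in the WT-labelled libraries and 78.8, 79.8 and 90.5 TPM in the W203C-labelled libraries. The groups did not overlap, and plvx neo was the lowest. ADM rose against plvx neo in the WT-labelled libraries (0.49 ± 0.047, edgeR adjusted p = 1.77e-07) and in the W203C-labelled libraries (0.26 ± 0.053, edgeR adjusted p = 0.0033), and was lower in the W203C-labelled than in the WT-labelled ones (-0.23 ± 0.051, edgeR adjusted p = 0.00184). VEGFA, the angiogenic growth factor, was between 26.02 and 37.1 TPM with all groups overlapping. It fell between the constructs (-0.27 ± 0.054, edgeR adjusted p = 0.000692), and did not pass against plvx neo in either line. Without plvx neo 1 it passed in W203C-labelled against plvx neo (-0.25, edgeR adjusted p = 0.0162). The exons of VEGFA overlap those of a gene at 15 TPM on the opposite strand.

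Mitochondrial members were led by both BNIP3 genes, which encode outer-membrane receptors for the removal of mitochondria by autophagy. BNIP3L, or NIX, was at 26.1, 28.5 and 26.8 TPM in plvx neo, 32.1, 37.8 and 35.3 TPM in the WT-labelled libraries and 22.9, 22.3 and 22.8 TPM in the W203C-labelled libraries. The 3 groups were separate, and the W203C-labelled libraries differed among themselves by less than 1 TPM. BNIP3L fell between the constructs (-0.67 ± 0.049, edgeR adjusted p = 3.59e-09) and rose in the WT-labelled libraries against plvx neo (0.50 ± 0.049, edgeR adjusted p = 2.28e-07). Its fall in the W203C-labelled libraries against plvx neo (-0.18 ± 0.052, edgeR adjusted p = 0.0439) was lost whichever of the 6 libraries was left out (edgeR adjusted p 0.0593 to 0.183), and by DESeq2.

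BNIP3 itself (ENSG00000176171, minus strand of chromosome 10 from 131967684 to 131981967 in hg38) was at 42.96, 44.8 and 43.5 TPM in plvx neo, 56.8, 51.8 and 53.8 TPM in the WT-labelled libraries and 36.3, 41.1 and 41.95 TPM in the W203C-labelled libraries. It showed the same order as BNIP3L, again without overlap. BNIP3 fell between the constructs (-0.49 ± 0.065, edgeR adjusted p = 9.35e-06) and rose in the WT-labelled libraries against plvx neo (0.26 ± 0.052, edgeR adjusted p = 0.000742). In the W203C-labelled libraries it fell against plvx neo (-0.23 ± 0.062, edgeR adjusted p = 0.0227), but not without plvx neo 1, plvx neo 3, W203C-labelled 1 or W203C-labelled 2 (edgeR adjusted p 0.0671 to 0.204), and in limma on log2(TPM + 1) it was -0.14 (adjusted p = 0.388).

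FAM162A, a mitochondrial protein linked to hypoxic cell death, was between 72.04 and 88.7 TPM. It fell between the constructs (-0.24 ± 0.051, edgeR adjusted p = 0.00103) and in the W203C-labelled libraries against plvx neo (-0.20 ± 0.055, edgeR adjusted p = 0.0304), the latter not without plvx neo 3 or any of the 3 W203C-labelled libraries (edgeR adjusted p 0.0538 to 0.208) and not in limma on log2(TPM + 1), where it was -0.13 (adjusted p = 0.334). AK4, an adenylate kinase of the mitochondrial matrix, is a member whose direction depended on the unit. On counts its change between the constructs was -0.042 ± 0.046, edgeR adjusted p = 0.547. In TPM the W203C-labelled libraries (50.3 to 57.8 TPM) lay above the WT-labelled ones (44.3 to 47.5 TPM), a difference of 0.23 that passed in limma on log2(TPM + 1) with an adjusted p of 0.0487. The mean effective length that RSEM gave AK4 was 1769 bases in the W203C-labelled and 2080 bases in the WT-labelled libraries, and TPM divides by this length.

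Kinases that steer glucose flux moved unequally. PDK1 encodes a kinase that inhibits pyruvate dehydrogenase. It was at 5.63, 5.38 and 5.89 TPM in plvx neo, 7.67, 7.42 and 7.35 TPM in the WT-labelled libraries and 5.10, 4.45 and 7.19 TPM in the W203C-labelled libraries. The WT-labelled libraries were the highest, with W203C-labelled 3 close under them. PDK1 fell between the constructs (-0.64 ± 0.09, edgeR adjusted p = 1.91e-05) and rose in the WT-labelled libraries against plvx neo (0.31 ± 0.086, edgeR adjusted p = 0.0109), the latter not without plvx neo 1 (edgeR adjusted p = 0.053) or WT-labelled 1 (edgeR adjusted p = 0.0677). The construct change was -0.39 in limma on log2(TPM + 1) and did not pass (adjusted p = 0.143). In the W203C-labelled libraries against plvx neo it fell on counts (-0.33 ± 0.09, edgeR adjusted p = 0.0292), yet by only -0.042 on log2(TPM + 0.1), with effective lengths of 3103 and 3635 bases. That call was lost without plvx neo 2, plvx neo 3, W203C-labelled 1 or W203C-labelled 2 (edgeR adjusted p 0.0525 to 0.185).

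PFKFB4 and PFKFB3 make and break fructose-2,6-bisphosphate, the activator of phosphofructokinase, and they moved in different ways. PFKFB4 was at 17.03, 15.7 and 16.5 TPM in plvx neo, 22.1, 17.4 and 18.9 TPM in the WT-labelled libraries and 11.8, 12.7 and 14.9 TPM in the W203C-labelled libraries. The 3 groups did not overlap. PFKFB4 fell between the constructs (-0.60 ± 0.084, edgeR adjusted p = 1.67e-05) and against plvx neo in the W203C-labelled libraries (-0.38 ± 0.073, edgeR adjusted p = 0.00185). Its rise in the WT-labelled libraries against plvx neo (0.22 ± 0.069, edgeR adjusted p = 0.0183) was 0.12 without WT-labelled 1 (edgeR adjusted p = 0.155) and was also lost without plvx neo 2 (edgeR adjusted p = 0.0592) or plvx neo 3 (edgeR adjusted p = 0.0625). PFKFB3 was 1 of the 2 members that fell in the WT-labelled libraries against plvx neo (-0.19 ± 0.046, edgeR adjusted p = 0.00432), and its change between the constructs was 0.09 ± 0.045, edgeR adjusted p = 0.148. With the correction for GC content and length PFKFB3 was -0.29 in the former and was called higher between the constructs (0.18, edgeR adjusted p = 0.00314). PDK3 did not pass in any comparison, and its change between the constructs was -0.26 ± 0.11, edgeR adjusted p = 0.0896 (-0.29, edgeR adjusted p = 0.0495 with the correction for GC content and length).

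Chromatin oxygenases use oxygen as a substrate, and the 3 histone demethylases among them were highest in the WT-labelled libraries. KDM4B, which removes methyl groups from histone H3 lysine 9, was at 10.9, 10.5 and 10.5 TPM in plvx neo, 16.02, 14.97 and 15.5 TPM in the WT-labelled libraries and 11.1, 10.9 and 10.7 TPM in the W203C-labelled libraries. The WT-labelled libraries stood apart, while plvx neo and W203C-labelled libraries overlapped. KDM4B rose in the WT-labelled libraries against plvx neo (0.54 ± 0.052, edgeR adjusted p = 1.77e-07) and was lower in the W203C-labelled ones (-0.52 ± 0.05, edgeR adjusted p = 1.34e-07), and its change from plvx neo to W203C-labelled was 0.0091 ± 0.055, edgeR adjusted p = 0.959.

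KDM3A rose by 0.36 ± 0.053, edgeR adjusted p = 4.24e-05 in the WT-labelled libraries against plvx neo and fell by -0.48 ± 0.058, edgeR adjusted p = 3.31e-06 between the constructs, and KDM4C by 0.25 ± 0.075, edgeR adjusted p = 0.0157 and -0.25 ± 0.076, edgeR adjusted p = 0.016. Both KDM4C calls were lost without WT-labelled 1 (edgeR adjusted p = 0.0778 and 0.0846), the first also without plvx neo 1 (edgeR adjusted p = 0.0893) and the second also without W203C-labelled 1 (edgeR adjusted p = 0.121) and in limma on log2(TPM + 1) (-0.15, adjusted p = 0.392). JMJD6, a lysyl hydroxylase, went the other way and fell in the WT-labelled libraries against plvx neo (-0.21 ± 0.051, edgeR adjusted p = 0.00407). None of the 4 oxygenases passed in W203C-labelled against plvx neo by edgeR, where JMJD6 alone had an unadjusted p below 0.05, and none passed by DESeq2 or limma.

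Transcription regulators fell between the constructs in 3 of 4 tested cases by edgeR, where 13.4% of all tested genes fell and 14.5% rose. In limma on log2(TPM + 1) MXI1 and ZNF395 lost this call and BHLHE40 kept it. BHLHE40, a repressor of the clock and of differentiation genes, was at 46.4, 54.3 and 55.01 TPM in plvx neo, 72.3, 67.3 and 71.2 TPM in the WT-labelled libraries and 56.8, 58.95 and 59.4 TPM in the W203C-labelled libraries. The groups did not overlap, with plvx neo lowest. BHLHE40 rose in the WT-labelled libraries against plvx neo (0.48 ± 0.043, edgeR adjusted p = 8.3e-08) and was lower in the W203C-labelled than in the WT-labelled ones (-0.31 ± 0.042, edgeR adjusted p = 1.02e-05). It also rose in the W203C-labelled libraries against plvx neo (0.16 ± 0.043, edgeR adjusted p = 0.0295), but not without plvx neo 1, plvx neo 3, W203C-labelled 1 or W203C-labelled 3 (edgeR adjusted p 0.0519 to 0.13).

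MXI1, a MAX partner that opposes MYC, was at 27.6, 27.8 and 29.6 TPM in plvx neo, 31.9, 27.1 and 28.9 TPM in the WT-labelled libraries and 19.00, 25.8 and 22.4 TPM in the W203C-labelled libraries. The W203C-labelled libraries were the lowest. MXI1 fell in them against the WT-labelled libraries (-0.43 ± 0.061, edgeR adjusted p = 1.84e-05) and against plvx neo (-0.36 ± 0.062, edgeR adjusted p = 0.000534), and its change from plvx neo to WT-labelled was 0.074 ± 0.051, edgeR adjusted p = 0.309.

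ZNF395 is a hypoxia-induced zinc-finger factor and was at 18.4, 20.1 and 19.5 TPM in plvx neo, 15.5, 18.4 and 20.7 TPM in the WT-labelled libraries and 21.5, 15.01 and 15.4 TPM in the W203C-labelled libraries. All groups overlapped, W203C-labelled 1 being the highest library. On counts ZNF395 fell in the W203C-labelled libraries against plvx neo (-0.28 ± 0.052, edgeR adjusted p = 0.0012) and against WT-labelled ones (-0.20 ± 0.056, edgeR adjusted p = 0.00829). The latter call was lost without WT-labelled 3 (edgeR adjusted p = 0.069) and with the correction for GC content and length (-0.10, edgeR adjusted p = 0.151). In limma on log2(TPM + 1) the values were -0.17 and -0.079 and neither passed. CITED2, which competes with HIF for its coactivators, did not pass in any comparison, with values of 0.02, -0.14 and -0.12.

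NDRG1 (ENSG00000104419), a stress-responsive gene and a standard readout of HIF activity, gave the smallest p of all members. It was at 116, 131 and 132 TPM in plvx neo, 183, 182 and 168 TPM in the WT-labelled libraries and 77.7, 83.1 and 75.7 TPM in the W203C-labelled libraries. The 3 groups were far apart relative to their spread. NDRG1 fell between the constructs by -1.24 ± 0.041, edgeR adjusted p = 6.53e-15, rose in the WT-labelled libraries against plvx neo (0.51 ± 0.041, edgeR adjusted p = 1.59e-08) and fell in the W203C-labelled libraries against plvx neo (-0.73 ± 0.039, edgeR adjusted p = 3.68e-12).

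**Figure D3:**
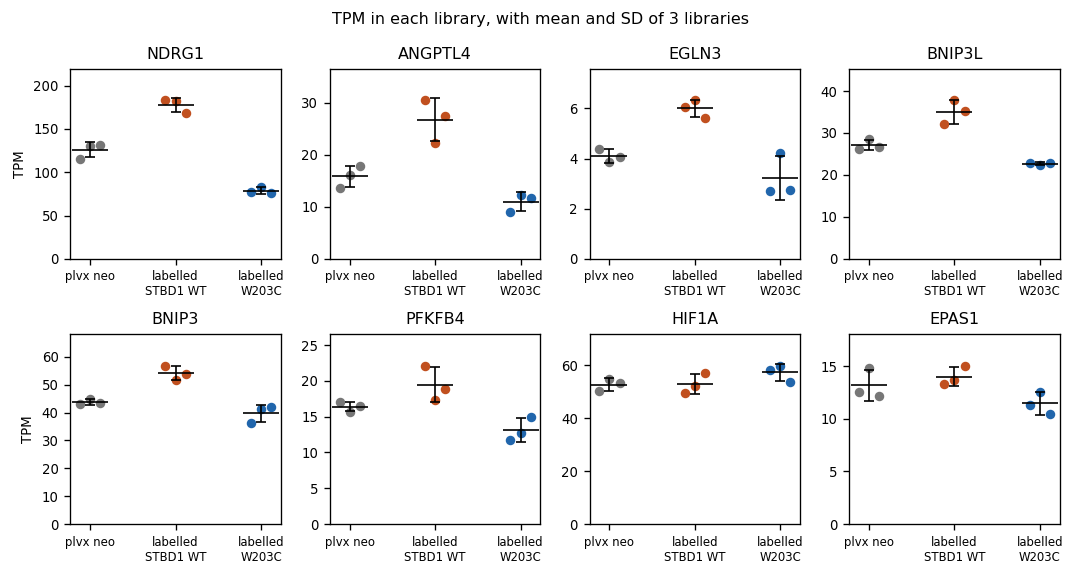
Points are the TPM of each library (vertical axis, starting at 0) for 8 members, and bars are the mean and SD of 3 libraries per group. NDRG1, ANGPTL4, BNIP3L, BNIP3 and PFKFB4 show the WT-labelled libraries above and the W203C-labelled libraries below plvx neo without overlap, EGLN3 overlaps between plvx neo and W203C-labelled, and HIF1A and EPAS1 span narrow ranges.

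Lipid and stress members followed. HILPDA, which sits on lipid droplets and inhibits their breakdown, was at 13.8, 14.1 and 16.5 TPM in plvx neo, 20.03, 15.3 and 18 TPM in the WT-labelled libraries and 9.89, 14.3 and 15.5 TPM in the W203C-labelled libraries. The groups overlapped. HILPDA rose in the WT-labelled libraries against plvx neo (0.38 ± 0.1, edgeR adjusted p = 0.00747) and fell between the constructs (-0.66 ± 0.12, edgeR adjusted p = 0.000247), and in limma on log2(TPM + 1) these became 0.24 and -0.41 and did not pass. Its exons overlap those of HILPDA-AS1.

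INSIG2 holds the sterol-sensing SCAP complex in the endoplasmic reticulum and was at 13.4, 9.22 and 14.96 TPM in plvx neo, 16.8, 14.5 and 15.3 TPM in the WT-labelled libraries and 9.90, 10.1 and 9.33 TPM in the W203C-labelled libraries. The W203C-labelled libraries were below all WT-labelled ones, and plvx neo 2 was the lowest of all. INSIG2 fell between the constructs (-0.56 ± 0.082, edgeR adjusted p = 3e-05). Its rise in the WT-labelled libraries against plvx neo (0.24 ± 0.083, edgeR adjusted p = 0.0364) was lost without plvx neo 1, plvx neo 2, WT-labelled 1 or WT-labelled 2 (edgeR adjusted p 0.0784 to 0.199), and its fall in the W203C-labelled ones against plvx neo (-0.32 ± 0.082, edgeR adjusted p = 0.0192) without plvx neo 3 or any of the 3 W203C-labelled libraries (edgeR adjusted p 0.0511 to 0.146).

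DDIT4, an inhibitor of mTORC1 signalling, was at 110.1, 136 and 144 TPM in plvx neo, 174, 134 and 151 TPM in the WT-labelled libraries and 122.8, 131 and 142 TPM in the W203C-labelled libraries. Its groups overlapped, and WT-labelled 1 was the highest library and plvx neo 1 the lowest. DDIT4 fell between the constructs (-0.31 ± 0.07, edgeR adjusted p = 0.0019, and -0.20 without WT-labelled 1) and rose in the WT-labelled libraries against plvx neo (0.24 ± 0.08, edgeR adjusted p = 0.0292). The rise was lost without plvx neo 1 (0.14, edgeR adjusted p = 0.158) or WT-labelled 1 (0.13, edgeR adjusted p = 0.227).

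Secretory and other members closed the list. WSB1, a ubiquitin ligase adaptor, was at 41.8, 50.9 and 51.3 TPM in plvx neo, 66.5, 63.1 and 75.2 TPM in the WT-labelled libraries and 52.3, 61.5 and 60.97 TPM in the W203C-labelled libraries. The WT-labelled libraries were the highest and plvx neo the lowest. WSB1 rose in the WT-labelled libraries against plvx neo (0.43 ± 0.053, edgeR adjusted p = 4.27e-06) and fell between the constructs (-0.43 ± 0.048, edgeR adjusted p = 1.16e-06). In limma on log2(TPM + 1) the construct change was -0.22 and did not pass (adjusted p = 0.123). Between W203C-labelled and plvx neo the TPM did not overlap, but the change on counts was 0.0028 ± 0.054, edgeR adjusted p = 0.989, with mean effective lengths of 1194 and 1410 bases.

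PPFIA4, a liprin scaffold protein, was at 2.23, 6.07 and 3.11 TPM in plvx neo, 4.74, 3.94 and 3.52 TPM in the WT-labelled libraries and 2.08, 1.47 and 1.62 TPM in the W203C-labelled libraries. The W203C-labelled libraries were the lowest, and plvx neo 2 was the highest of all. PPFIA4 fell between the constructs (-0.68 ± 0.13, edgeR adjusted p = 0.000496), and by -1.20 on log2(TPM + 0.1), with effective lengths of 3618 and 2419 bases. Against plvx neo its fall in the W203C-labelled libraries (-0.48 ± 0.14, edgeR adjusted p = 0.0453) was lost when any library but plvx neo 1 was left out (edgeR adjusted p 0.073 to 0.26).

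FUT11, a fucosyltransferase, was at 14.98, 17.2 and 16.97 TPM in plvx neo, 16.3, 14.3 and 15.7 TPM in the WT-labelled libraries and 14.5, 12.96 and 14.2 TPM in the W203C-labelled libraries. The W203C-labelled libraries lay below plvx neo without overlap. FUT11 fell in this comparison (-0.27 ± 0.074, edgeR adjusted p = 0.0288), but not without plvx neo 2, plvx neo 3, W203C-labelled 1 or W203C-labelled 2 (edgeR adjusted p 0.0511 to 0.155), and its change between the constructs was -0.18 ± 0.076, edgeR adjusted p = 0.087.

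ERO1A, the oxidase that drives disulfide formation in the endoplasmic reticulum, fell between the constructs (-0.29 ± 0.044, edgeR adjusted p = 4.91e-05) and rose in the WT-labelled libraries against plvx neo (0.16 ± 0.043, edgeR adjusted p = 0.01), the latter not without plvx neo 3 (edgeR adjusted p = 0.065) or WT-labelled 1 (edgeR adjusted p = 0.0698). Its construct change in limma on log2(TPM + 1) was -0.13 and did not pass (adjusted p = 0.234). ANKRD37, whose exons overlap those of UFSP2 on the opposite strand, fell between the constructs (-0.58 ± 0.17, edgeR adjusted p = 0.0141). Without WT-labelled 3 that value was -0.31 (edgeR adjusted p = 0.169), and it also failed without W203C-labelled 1 (edgeR adjusted p = 0.0863) and by DESeq2. In W203C-labelled against plvx neo ANKRD37 did not pass (edgeR adjusted p = 0.251), but it did without plvx neo 1 (-0.54, edgeR adjusted p = 0.0223). RAB20 and TMEM45A did not pass in any comparison, although RAB20 did in WT-labelled against plvx neo without WT-labelled 3 (-0.29, edgeR adjusted p = 0.0453).

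**Figure D4:**
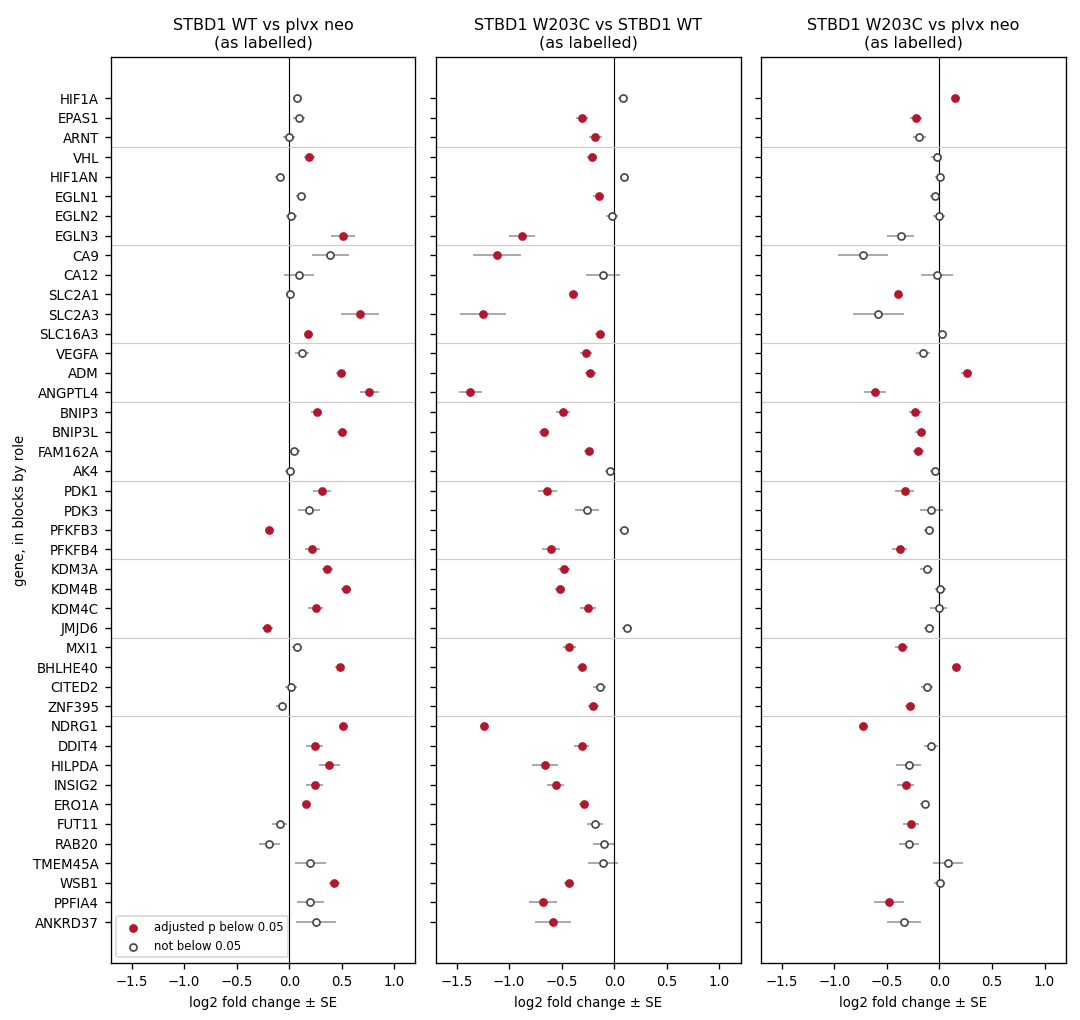
Log2 fold change (horizontal axis, on counts) of the 43 tested members, in blocks by role, in 3 panels, 1 for each comparison as labelled. Bars are the SE, filled red points have an edgeR adjusted p below 0.05 and open points do not. In the middle panel 31 points are filled and all of them lie left of 0, while the right panel has 17 filled points.

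Promoters of the members were read for the letters that HIF recognises. RefSeq promoter windows (GRCh38.p14), reaching from 250 bases before to 50 bases after a transcript start, matched 35 of the 46 members and gave 52 windows, since some genes have several starts. The core letters ACGTG or GCGTG were searched on both strands, where they read CACGT and CACGC on the other strand, and overlapping matches were counted separately. They were present in 40 of the 52 windows (76.9%), in 60.4% of 16172 windows of the genes tested and in 48.4% of all 35116 windows. Members that fell between the constructs had them in 27 of 33 windows (81.8%) and other members in 13 of 19 (68.4%). These shares count windows, not genes, and windows of the same gene can hold the same stretch, as for KDM3A and INSIG2. Such a short motif occurs in many promoters, and a match is a description of the letters, not a bound site.

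The stretches that held matches before the start are shown for 6 members. CA9, PPFIA4, PDK1, PFKFB4 and ANGPTL4 are among the 10 members that the rule for named genes gave between the constructs. BNIP3 was added after its values were seen. Stretches of the other named members, NDRG1 and BNIP3L among them, are not given. Their absence here does not show that these promoters lack a match. The stretches shown read from 5′ to 3′ on the strand of the gene, with the matches in capitals. BNIP3 had the most matches among them, with 6 that include overlapping ones, CA9 had a single match just before its start, and the starts used for PDK1, PFKFB4 and ANGPTL4 lie inside the annotated gene.
BNIP3 promoter, chr10:131982011-131982078, minus strand: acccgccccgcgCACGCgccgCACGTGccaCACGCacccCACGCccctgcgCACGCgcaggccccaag
CA9 promoter, chr9:35673898-35673926, plus strand: tcgtttccaatgCACGTacagcccgtaca
PPFIA4 promoter, chr1:203026360-203026423, plus strand: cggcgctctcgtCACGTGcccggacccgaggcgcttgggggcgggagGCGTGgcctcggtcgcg
PDK1 promoter, chr2:172556061-172556089, plus strand: cctgctgcccgcCACGTccctCACGTacc
PFKFB4 promoter, chr3:48556953-48556981, minus strand: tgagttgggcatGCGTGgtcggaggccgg
ANGPTL4 promoter, chr19:8363909-8363937, plus strand: ggaaagaagagtCACGTctcccacggttc

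Other lists of the pathway gave context, read beside the shares of all tested genes. Between the constructs 13.4% of these fell and 14.5% rose. In WT-labelled against plvx neo 13.9% rose and 13.9% fell, and in W203C-labelled against plvx neo 3.03% rose and 2.67% fell. Of 40 further hypoxia-inducible genes, 33 were tested, and 17 fell and 2 rose between the constructs, with a median of -0.16. LOXL2, a lysyl oxidase of the matrix, fell most (-0.99 ± 0.066, edgeR adjusted p = 9.22e-10). KLHL24 fell by -0.66 ± 0.11, the collagen prolyl hydroxylase subunit P4HA1 by -0.64 ± 0.057 and ANG, the ribonuclease angiogenin, by -0.57 ± 0.16. In the WT-labelled libraries against plvx neo 15 of the 33 rose and 3 fell, led by the phosphatidate phosphatase LPIN1 (0.65 ± 0.071), KLHL24 (0.57 ± 0.12), LOXL2 (0.55 ± 0.051) and the urokinase receptor gene PLAUR (0.51 ± 0.062). In the W203C-labelled libraries against plvx neo 3 rose, among them LPIN1 (0.28 ± 0.075), and 5 fell, among them LOXL2 (-0.45 ± 0.071), P4HA1 (-0.31 ± 0.067) and EFNA3 (-0.28 ± 0.075). These 8 calls became 3 without plvx neo 2, plvx neo 3 or W203C-labelled 1, and 5 without W203C-labelled 2, and limma on log2(TPM + 1) made 0.

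The remaining HIF machinery, meaning chaperones, coactivators and ubiquitin ligase subunits, was counted in the same way. Over all tested genes the shares were 14.5% higher and 13.4% lower between the constructs. They were 13.9% and 13.9% in WT-labelled and 3.03% and 2.67% in W203C-labelled libraries against plvx neo. Of 21 tested genes (22 listed), 6 rose between the constructs by edgeR and none fell, also at an unadjusted p below 0.05 and by DESeq2. Without WT-labelled 3, 5 were called higher and 1 lower. They were led by the HSP90 chaperone genes HSP90AA1 (0.31 ± 0.039) and HSP90AB1 (0.22 ± 0.037), the coactivator CREBBP (0.30 ± 0.044) and the cullin CUL2 (0.18 ± 0.054). In the WT-labelled libraries against plvx neo 5 fell, among them HSP90AA1 (-0.35 ± 0.037), ELOC (-0.21 ± 0.042) and CUL2 (-0.19 ± 0.055), and only OS9 rose (0.19 ± 0.044). In the W203C-labelled libraries against plvx neo CREBBP (0.19 ± 0.044) and HSP90AB1 (0.11 ± 0.03) rose and none fell, again also at an unadjusted p below 0.05 and by DESeq2. The number of genes of this list called there was 0 to 2 when 1 of the 6 libraries was left out, with 0 without plvx neo 3 or W203C-labelled 1.

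Glycolytic enzymes, which the set left out, were read beside it. Over all tested genes 13.4% fell and 14.5% rose between the constructs. Against plvx neo 13.9% rose and 13.9% fell in WT-labelled libraries, and 3.03% rose and 2.67% fell in W203C-labelled ones. Of 18 tested, 9 fell and none rose between the constructs by edgeR, and none was higher at an unadjusted p below 0.05 or by DESeq2. ALDOC fell most (-1.0 ± 0.06), before ENO2 (-0.71 ± 0.061), HK1 (-0.30 ± 0.042) and ALDOA (-0.23 ± 0.039), and the median of -0.14 compares with -0.29 for the members. In the WT-labelled libraries against plvx neo 6 rose and none fell, also at an unadjusted p below 0.05 and by DESeq2, led by ALDOC (0.57 ± 0.056), PFKL (0.29 ± 0.04), ENO2 (0.19 ± 0.054) and HK1 (0.17 ± 0.041). In the W203C-labelled libraries against plvx neo 4 fell, namely ENO2 (-0.53 ± 0.063), ALDOC (-0.43 ± 0.054), PGK1 (-0.23 ± 0.034) and PFKP (-0.16 ± 0.036). None rose by edgeR or DESeq2, and 1 was higher at an unadjusted p below 0.05.

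Members were also ranked by level. By the authors' TPM averaged over the 9 libraries, the 5 most abundant members were SLC16A3 (443 TPM), SLC2A1 (221 TPM), DDIT4 (138 TPM), NDRG1 (128 TPM) and ADM (82.4 TPM). The 5 least abundant tested members were SLC2A3 (1.32 TPM), CA12 (1.99 TPM), CA9 (2.96 TPM), PPFIA4 (3.2 TPM) and EGLN3 (4.45 TPM). Of these 10 genes, only CA12 did not fall between the constructs by edgeR, where 13.4% of all tested genes fell. In limma on log2(TPM + 1) ADM, CA9, DDIT4, SLC16A3 and SLC2A3 were not called either. SLC16A3 also did not pass with the correction for GC content and length. The exons of 20 of the 46 members overlap those of another gene, 14 of them on the opposite strand. How far a level is uncertain depends on the level of the neighbour. On the opposite strand it stood at 502 TPM for HIF1AN (NDUFB8), 117 TPM for SLC16A3 (CSNK1D) and 0.282 TPM for BNIP3L (PNMA2).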

How the data were processed

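Total RNA of 9 libraries was sequenced as Illumina read pairs from libraries made with the NEBNext Ultra RNA kit. Per the submitters' processing notes and the methods of the study, the authors aligned filtered reads to hg38 with STAR 2.7.1a, using Ensembl release 93 gene models, and estimated abundance with RSEM 1.3.1. The deposited expected count of a gene is the number of read pairs that the authors' RSEM run assigned to it, and need not be whole because ambiguous pairs are shared out. The deposited TPM values were scaled by the authors' RSEM run for effective transcript length and to a fixed library total. The deposited FPKM values, also from the authors' RSEM run, were not used. Whether counting was stranded is not given in the sources used here.

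Symbols matched 57754 of 58395 gene identifiers. Expected counts were rounded. Each comparison was fitted on its 6 libraries in R 4.3.3: genes passing filterByExpr were normalised by TMM and tested with the quasi-likelihood F-test of edgeR 4.0.16, and p-values were adjusted by Benjamini-Hochberg over all tested genes. The SE was the log2 fold change divided by the square root of F. The 3-group test used all 9 libraries. DESeq2 1.42.0, limma 3.58.1 on log2 TPM, and offsets for GC content and length were alternatives. The scripts were tested on simulated data. Common biological variation was 4.21%, 4.05% and 4.18% in the 3 comparisons, and chi-square per gene between replicates was 2.12 to 3.87, so replicates differed by more than sampling noise.

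Groups and replicate numbers came from the sample titles. The members and the other lists were chosen with earlier results of these data known. Values in every library are given for HIF1A, EPAS1, ARNT, VHL, HIF1AN and EGLN1 to EGLN3, and in each comparison for members with an adjusted p below 0.05, no overlap of TPM, a mean of at least 1 TPM in the higher group and at least 1.5-fold change. Where fewer than 10 qualified, the called members of largest log2 fold change filled up to 10. The other lists name up to 4 called genes each. BNIP3 and DDIT4 were given in every library after their values were seen.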

Additional observations from a re-analysis of the deposited data

Results flagged for a closer look

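In 5 members the lines carrying the constructs lay on opposite sides of plvx neo in every library, WT-labelled above and W203C-labelled below, an order shown by 0.381% of the 15489 genes tested. The log2 difference of W203C-labelled minus WT-labelled was -1.37 ± 0.11 for ANGPTL4, -1.24 ± 0.041 for NDRG1, -0.67 ± 0.049 for BNIP3L, -0.60 ± 0.084 for PFKFB4 and -0.49 ± 0.065 for BNIP3. The order that picked these members already sets the constructs apart, so these differences are a description and were not tested on other libraries. Some margins to plvx neo were narrow. PFKFB4 was at 17.36 TPM in WT-labelled 2 and 17.03 TPM in plvx neo 1, and BNIP3 at 41.95 TPM in W203C-labelled 3 and 42.96 TPM in plvx neo 1. A call against plvx neo was lost on leaving out single libraries for PFKFB4, BNIP3 and BNIP3L, as given above. The files name these constructs the other way round, so the sign of each difference depends on which naming is right. CD68, whose level is uncertain because of overlapping genes, moved in the same order of groups, and its part was not tested.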

How the results depend on the processing

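Of the values for single genes, 1540 kept their direction and side of the threshold under an alternative. A call was lost for 181 and gained for 18. For 65 the sign changed with no call in either fit, and 2 reversed, meaning that the sign changed with a call. AK4 reversed between the constructs, to 0.23 with both limma settings from -0.042 on counts. The cause was not tested beyond the effective lengths given for AK4. Settings with limma on TPM changed the unit and the test together, so their parts cannot be told apart. With limma on log2(TPM + 1) and log2(TPM + 0.1), 10 and 10 members changed in WT-labelled against plvx neo (all higher), 14 and 14 between the constructs (1 higher and 13 lower) and 1 and 1 in W203C-labelled against plvx neo. Any difference among the 3 groups was called for 15 and 16. The members' median became -0.21 with both between the constructs and -0.13 with the first in W203C-labelled against plvx neo. In the same order of comparisons, both settings called 10, 10 and 0 further hypoxia-inducible genes, 3, 3 and 0 genes of the HIF machinery and 3, 5 and 0 glycolytic enzymes, against 8, 2 and 4 on counts where limma called 0. Over the whole table, limma on log2(TPM + 1) called 1751, 1828 and 131 genes, and edgeR 4254, 4202 and 859, and the share of calls that were higher went from 51.8% to 68.8% between the constructs and from 53.2% to 74.0% in W203C-labelled against plvx neo.

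Correction for GC content and length raised the HIF machinery count to 10 between the constructs and to 5 in W203C-labelled against plvx neo. With it 33 members changed between the constructs, 3 of them higher, 24 in WT-labelled against plvx neo and 19 in W203C-labelled against plvx neo. In the same order 4499 of 15052, 4739 of 15289 and 1176 of 15081 tested genes were called, against 4202, 4254 and 859 without it. It moved the share of higher calls over all genes from 50% to 39.5% in WT-labelled against plvx neo and from 51.8% to 62.9% between the constructs. No pairing of the libraries by replicate number was evident, but this check cannot establish that they were unpaired. The deviations of same-numbered libraries correlated across genes by 0.0139 on average, against -0.00693 for other pairs. The best match in another group had the same number in 8 of 18 cases. With the replicate block 22, 30 and 18 members changed in the 3 comparisons (22, 31 and 17 without it). Over all tested genes 4400, 3662 and 1003 were called (4254, 4202 and 859 without it). EGLN1 lost its call between the constructs, and ERO1A gained a call in W203C-labelled against plvx neo. There 1 gene of the HIF machinery was called in place of 2.

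Leaving out 1 library at a time, the members' median ranged from 0.13 (without WT-labelled 1) to 0.21 in WT-labelled against plvx neo, from -0.30 to -0.25 (without WT-labelled 1) between the constructs, and from -0.19 (without plvx neo 1) to -0.13 in W203C-labelled against plvx neo. In that last comparison 7 (without plvx neo 3) to 15 members changed in place of 17. There were 9 without W203C-labelled 1 or W203C-labelled 2 and 11 without W203C-labelled 3. Over all tested genes 859 calls became 459 without plvx neo 3, and 501, 543 and 818 without W203C-labelled 1, 2 and 3. Of the further hypoxia-inducible genes 3 to 8 changed there, of the HIF machinery 0 to 2 and of the glycolytic enzymes 3 to 7. Between the constructs 26 to 31 members changed, and in WT-labelled against plvx neo 16 to 23. Over all tested genes 3307 to 3618 changed between the constructs in place of 4202. In WT-labelled against plvx neo 3317 to 3794 changed in place of 4254. With 3 libraries from 1 line a group, these data do not separate the construct from the line, and low members such as SLC2A3 and CA9 are limited by depth.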
